A study of Mus musculus with 9 samples.

Results

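*Lin28a* and 9 genes tied to it in fetal growth and in cancer were followed from the periocular neural crest to the forming cornea of the mouse. The set holds the RNA-binding proteins *Lin28a* and *Lin28b*, the ubiquitin ligase *Trim71*, the mRNA-binding proteins *Igf2bp1*, *Igf2bp2* and *Igf2bp3*, the chromatin proteins *Hmga1* and *Hmga2*, and the transcription factors *Myc* and *Mycn*. *Lin28a* was chosen by its measured loss in the cornea, so its own levels are given as a description without a test. The other 9 genes were taken for their known link to *Lin28a* or to its target microRNA, let-7. Earlier results of these data were known when they were taken, so counts of those that fell are not an independent test. Symbols were matched to the Entrez Gene identifiers of the RNA-Seq files, and all 10 genes were found among the 19369 genes listed in any sample.

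The study asked how the transcriptome changes while crest cells become cornea. All embryos were wild type and of the C57/B6 strain, with no transgene or treatment. At E10.5 the samples held periocular neural crest (pNC), the migratory mesenchyme around the early eye, after dispase treatment and removal of the ectoderm, lens vesicle and optic cup. At E14.5 and E16.5 they held whole corneas, and each of the 3 samples per stage pooled the tissue of several eyes. Stage and tissue thus change together, and a cornea also contains an epithelium that is not derived from the crest. Totals lay between 8745161 and 9069023 expected counts per sample, where an expected count is an estimate of the fragments that come from a gene. Crest mesenchyme markers such as *Twist1* summed to between 297 and 348 FPKM (fragments per kilobase of transcript, scaled to library size) at E10.5, and keratocyte markers summed to at least 1340 FPKM in every cornea. In these bulk samples, fewer cells of a type and less RNA per cell cannot be told apart.

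LIN28 proteins bind the precursors of let-7 and block their maturation, and terminal uridylyl transferases such as TUT4 and TUT7 then tag the bound precursors for decay by DIS3L2. Mature let-7 in turn represses mRNAs that carry sites for it in their 3′ untranslated regions (UTRs), among them those of both *Lin28* genes, *Trim71*, *Hmga2* and *Igf2bp1*. This double-negative loop marks the passage from early embryonic to differentiated cells, and the products on its embryonic side return in many tumors, hence the name oncofetal.

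The mature let-7 sequences are shown first because the loop rests on their seed, bases 2 to 8, which pairs with the target. In RefSeq (GRCm38.p6), 9 mature let-7 and miR-98 sequences from 11 loci all carried the same seed, given in capitals, and differed only outside it. 4 of them read as follows, 5′ to 3′.
let-7a-5p: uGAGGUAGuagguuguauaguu
let-7g-5p: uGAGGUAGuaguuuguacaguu
let-7i-5p: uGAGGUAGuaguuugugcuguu
miR-98-5p: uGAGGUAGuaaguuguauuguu

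The complement of this seed, CTACCTC, was searched on the transcript strand of each gene's 3′ UTR (GENCODE M21, GRCm38). It was present in 9.96% of the 13796 tested genes that had a 3′ UTR, and in 8 of the 10 genes followed here. *Lin28b*, *Trim71*, *Igf2bp1* and *Hmga2* held 4 matches each and *Lin28a* held 2, while *Igf2bp2*, *Igf2bp3* and *Hmga1* held 1 each and *Myc* and *Mycn* held 0. Among the 13786 other genes, 5 held 4 or more. The genes followed here were taken partly for a known link to let-7, so their matches follow in part from that choice. UTR length differs between these genes, from 442 bases in *Myc* to 6337 in *Igf2bp1*, and 23.7% of genes with a UTR within 1.2-fold of the length of that of *Lin28b* (4445 bases) held at least 1 match, against 16.4% for *Hmga2* (2977 bases) and 4.13% for *Myc*. For each gene with a match, the one nearest the stop codon is shown with the 22 bases of its window, the match in capitals.
*Lin28a*, chr4:134005189-134005210, minus strand: cacagcctgttgaaCTACCTCa
*Lin28b*, chr10:45381022-45381043, minus strand: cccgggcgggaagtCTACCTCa
*Trim71*, chr9:114512472-114512493, minus strand: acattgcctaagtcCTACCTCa
*Igf2bp1*, chr11:95961778-95961799, minus strand: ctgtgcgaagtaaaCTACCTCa
*Igf2bp2*, chr16:22059473-22059494, minus strand: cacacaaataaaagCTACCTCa
*Igf2bp3*, chr6:49086787-49086808, minus strand: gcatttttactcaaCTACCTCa
*Hmga1*, chr17:27563278-27563299, plus strand: cctctgttcacaaaCTACCTCt
*Hmga2*, chr10:120364224-120364245, minus strand: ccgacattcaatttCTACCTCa

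An A follows the match in 13 of the 21 windows found in these genes, including 7 of the 8 shown. The match shown for *Hmga2* begins at base 21 after the stop codon and that of *Lin28b* at base 36. 2 of the 4 *Trim71* matches lie beyond the end of the RefSeq gene model. A match in letters is a description only, and small RNAs were not measured here, so the level of let-7 is unknown.

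The set was high in the pNC and low in the cornea. Summed over the 10 genes, the level was 728 ± 11.6 FPKM in the crest (SD, n = 3), 208 ± 27.0 in the E14.5 corneas and 130 ± 8.09 in those of E16.5. *Hmga1* alone made up 56.0%, 52.5% and 50.7% of this sum on average, so each gene is also given by itself. In the edgeR quasi-likelihood test over 14771 genes, with a call at an adjusted p under 0.05 and a log2 fold change of at least 1 in size, 8 of the 9 tested genes fell from E10.5 to E14.5 and 0 rose, beside 7.97% of all tested genes that fell and 13.6% that rose. Likewise 8 of 9 fell and 0 rose from E10.5 to E16.5, beside 15.4% that fell and 19.4% that rose, and the genes not called were *Igf2bp3* in the first comparison and *Myc* in the second. Between E14.5 and E16.5, 3 of 9 fell and 0 rose, beside 5.47% and 6.26% of all tested genes. The median log2 fold change of the 9 genes was -1.58, -2.47 and -0.57 in these comparisons, against 0.01, 0.00 and -0.02 over all tested genes. The first 2 comparisons share the E10.5 samples and each pair of comparisons shares a stage, so they are not independent of each other.

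**Figure D1:**
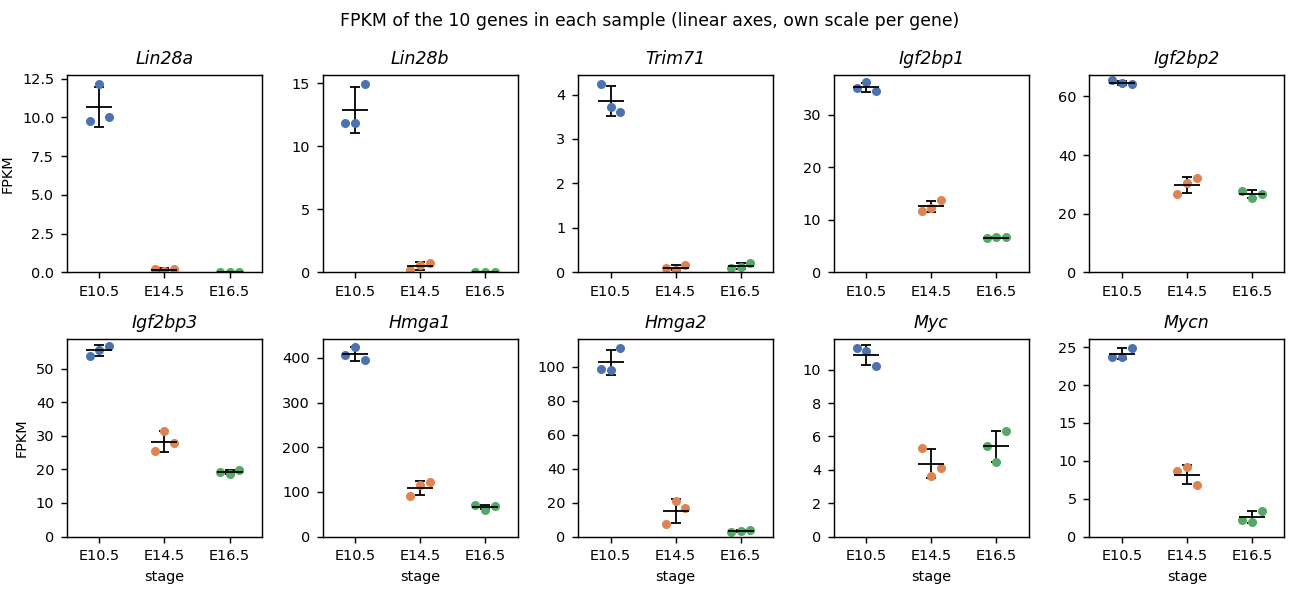
FPKM of each gene (vertical axis, linear from 0, own scale per gene) in the 3 samples of each stage (dots), with the stage mean (bar) and SD (whiskers). Every E10.5 sample lies above every cornea sample for each gene drawn, *Lin28a* having been chosen for its loss. The share of all genes that separate so was not counted, so this separation is only a description. *Lin28a* is at 0 in all 3 E16.5 samples, and *Trim71*, *Igf2bp2* and *Myc* overlap between E14.5 and E16.5.

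*Lin28a* (chr4:134003330-134019196, GRCm38.p6, as are the other gene positions) measured 9.79, 12.15 and 10.04 FPKM at E10.5. It measured 0.23, 0.06 and 0.19 FPKM at E14.5 and was listed in no E16.5 sample. All crest samples therefore stood far above all corneas. In expected counts, the 3 E10.5 samples held 1004 and the 3 E14.5 samples 15. At E16.5 the level was at least 109-fold lower than at E10.5, taking 3 counts per library as the floor. *Lin28b* (chr10:45376617-45486314), the paralog, which is known to act in the nucleus as well, measured 11.82, 11.80 and 14.93 FPKM at E10.5, a range that overlaps that of *Lin28a*.

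*Lin28b* then measured 0.15, 0.62 and 0.76 FPKM at E14.5 and 0.06, 0.04 and 0.06 FPKM at E16.5. The 3 stages did not overlap. The log2 fold change was -4.66 ± 0.32 (SE, edgeR, adjusted p = 1.3e-06) from E10.5 to E14.5 and -7.65 ± 0.45 (adjusted p = 2.2e-07) from E10.5 to E16.5. Between the corneal stages it fell again, by 2.99 ± 0.66 on the log2 scale (adjusted p = 0.0059), from 74 to 8 summed counts, a ratio of 9.24 after scaling to library totals (95% exact interval 4.45 to 22.2, counting error only). That last call was lost with limma on log2(FPKM + 1), where the change was -0.50, and with the NOISeq criterion, where it was -3.26. Thus by E14.5 the mean of *Lin28a* was 1.5% and that of *Lin28b* 3.97% of the E10.5 mean, and a trace of *Lin28b* was left at E16.5.

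*Trim71* (chr9:114511268-114564369) encodes a ligase and mRNA repressor of early embryos, the homolog of the worm heterochronic gene lin-41. It measured 4.24, 3.72 and 3.61 FPKM in the crest, 0.09, 0.06 and 0.17 in E14.5 corneas, and 0.09, 0.11 and 0.21 in those of E16.5. The crest samples stood apart, and the corneal stages overlapped. The fall was -5.14 ± 0.32 on the log2 scale by E14.5 (edgeR, adjusted p = 6.2e-07) and -4.64 ± 0.31 by E16.5 (adjusted p = 4.2e-07). From E14.5 to E16.5 the difference was 0.49 ± 0.47 (adjusted p = 0.45), with 15 and 19 counts over 3 samples. Its summed counts were 544 at E10.5 and 15 at E14.5, a ratio of 35.8 after scaling to library totals (95% exact interval 21.5 to 64.4, counting error only). FPKM was scaled by the authors to a *Trim71* transcript of 5197 bases, and GENCODE has a 3′ UTR alone of 5512 bases.

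The IGF2 mRNA-binding proteins, which hold their target mRNAs in the cytoplasm and shield them from decay, fell far less. *Igf2bp1* (chr11:95957163-96005944) measured 35.06, 36.18 and 34.50 FPKM in the crest, 11.68, 12.24 and 13.72 in E14.5 corneas, and 6.47, 6.71 and 6.71 in those of E16.5. The 3 stages were separate, with log2 fold changes of -1.5 ± 0.09 to E14.5 (edgeR, adjusted p = 4.1e-07) and -2.26 ± 0.09 to E16.5 (adjusted p = 3.2e-08). The step between the corneal stages, -0.76 ± 0.09 (adjusted p = 0.00046), passed the test but not the fold minimum.

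*Igf2bp2* (chr16:22059009-22163299), the member that adult tissues most often keep, measured 65.48, 64.58 and 64.18 FPKM in the crest, 26.75, 30.63 and 32.22 in E14.5 corneas, and 27.91, 25.38 and 26.76 in those of E16.5. It fell once, by 1.13 ± 0.09 on the log2 scale to E14.5 (edgeR, adjusted p = 3.1e-06), and the corneal stages then overlapped, with a change of -0.00 ± 0.09 (adjusted p = 0.99) that became -0.16 when libraries were scaled by their totals alone. *Igf2bp3* (chr6:49085218-49215469) measured 53.69, 55.60 and 56.84 FPKM, then 25.47, 31.48 and 27.85, then 19.25, 18.68 and 19.89. Its stages did not overlap. The first step was -0.98 ± 0.09 (adjusted p = 6.5e-06), just short of the fold minimum. That minimum was reached with DESeq2 (-1.0), without E10.5 replicate 1 (-1.01) and without E14.5 replicate 2 (-1.06), and from E10.5 to E16.5 the change was -1.37 ± 0.09 (adjusted p = 3.4e-07).

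By mean FPKM, a level per length, the order was *Igf2bp2*, *Igf2bp3* and *Igf2bp1* at every stage, although the samples of the first 2 overlapped at E14.5. Their shares moved. *Igf2bp2* made up 41.7% ± 0.676 of the summed FPKM of the family at E10.5 (SD, n = 3) and 50.7% ± 1.14 at E16.5, whereas *Igf2bp1* went from 22.7% ± 0.479 to 12.6% ± 0.577. The samples of these stages did not overlap in either share. With 3 samples against 3, an exact test of a single share could not go below p = 0.10, so none was made.

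*Hmga1* and *Hmga2* encode AT-hook proteins that bend DNA and loosen chromatin. *Hmga1* (chr17:27556574-27563672) was the highest of the set, at 405.55, 424.62 and 394.47 FPKM in the crest, 91.71, 115.25 and 121.30 in E14.5 corneas, and 70.73, 60.02 and 67.31 in those of E16.5. No stage overlapped another. The log2 fold change was -1.91 ± 0.11 to E14.5 (edgeR, adjusted p = 5.2e-07) and -2.47 ± 0.12 to E16.5 (adjusted p = 7.5e-08), with -0.57 ± 0.11 between the corneal stages (adjusted p = 0.0039), below the fold minimum. *Hmga1* has near-identical processed pseudogene copies, so its counts carry an uncertainty that was not tested, as do those of *Hmgb1* and *Hnrnpa1*.

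*Hmga2* (chr10:120361268-120476469), the member most tied to undifferentiated mesenchyme, fell more steeply and in both steps. It measured 98.37, 97.84 and 110.95 FPKM in the crest, 7.18, 20.71 and 16.76 in E14.5 corneas, and 2.93, 3.40 and 3.78 in those of E16.5. The E14.5 samples were spread widely but overlapped neither neighbor. The log2 fold changes were -2.80 ± 0.30 (edgeR, adjusted p = 2.5e-05), -4.77 ± 0.33 (adjusted p = 6.1e-07) and, between the corneal stages, -1.98 ± 0.31 (adjusted p = 0.0014). The share of *Hmga2* in the summed FPKM of the pair went from 20.1% ± 1.68 at E10.5 (SD, n = 3) to 4.89% ± 0.786 at E16.5.

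*Myc* and *Mycn* encode related transcription factors that drive growth and ribosome production, and they took different courses. *Myc* (chr15:61985341-61990361) measured 11.31, 11.11 and 10.20 FPKM in the crest, 5.32, 3.65 and 4.10 in E14.5 corneas, and 5.43, 4.48 and 6.34 in those of E16.5. The corneal stages overlapped. It fell by 1.33 ± 0.17 on the log2 scale to E14.5 (edgeR, adjusted p = 8e-05), while the change was -0.86 ± 0.16 to E16.5 (adjusted p = 0.00074, below the fold minimum) and 0.48 ± 0.17 between the corneal stages (adjusted p = 0.054). Against E10.5, the E16.5 change reached the minimum with libraries scaled by their totals alone (-1.01), a scaling that moved the median of all genes to -0.15, with limma on log2(FPKM + 0.1) (-1.0) and with the NOISeq criterion (-1.01).

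*Mycn* (chr12:12936093-12941836) measured 23.74, 23.72 and 24.96 FPKM in the crest, 8.59, 9.13 and 6.80 in E14.5 corneas, and 2.20, 1.96 and 3.42 in those of E16.5. No stage overlapped another, and each step was called, with log2 fold changes of -1.58 ± 0.16 (edgeR, adjusted p = 1.7e-05), -3.11 ± 0.18 over both steps (adjusted p = 2e-07) and -1.53 ± 0.18 (adjusted p = 0.0005). At E10.5 every *Mycn* sample lay above every *Myc* sample, and at E16.5 every one lay below.

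The family's other gene, *Mycl*, went the opposite way. It measured 13.77, 14.51 and 11.56 FPKM in the crest, 23.65, 28.51 and 25.61 in E14.5 corneas, and 34.96, 27.19 and 29.61 in those of E16.5. All corneas stood above all crest samples, with a log2 fold change of 1.35 ± 0.12 to E16.5 (edgeR, adjusted p = 2.4e-06). To E14.5 it was 0.95 ± 0.12 (adjusted p = 6.9e-05), below the fold minimum, which it reached without E10.5 replicate 2 (1.01) or without E14.5 replicate 1 (1.02). As a share of the summed FPKM of the 3 genes, *Mycn* lay between 48.1% and 53.4% in the E10.5 samples and between 5.17% and 8.69% in the E16.5 samples, and *Mycl* went from 27.5% ± 2.42 (SD, n = 3) to 79.4% ± 3.67. The sum itself was 48.3 ± 1.39 FPKM in the crest, 38.5 ± 2.51 in E14.5 corneas and 38.5 ± 4.54 in those of E16.5.

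**Figure D2:**
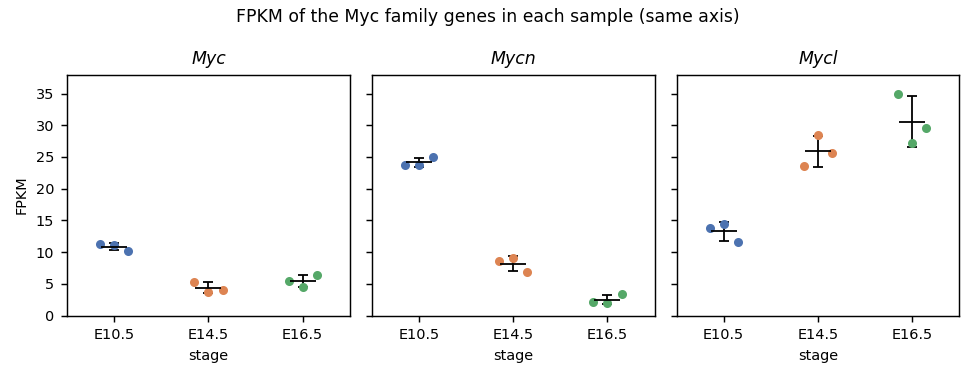
FPKM of *Myc*, *Mycn* and *Mycl* (vertical axis, linear from 0, shared) in the 3 samples of each stage (dots), with the stage mean (bar) and SD (whiskers). *Mycn* is the highest of the 3 in every E10.5 sample and the lowest in every E16.5 sample, and *Mycl* is the highest in every cornea.

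Set side by side, the genes stood in the cornea at different shares of their pNC level. The tissue differs between these stages, so the shares are not rates of loss within a cell type. At E14.5 the mean FPKM of *Lin28a*, *Trim71* and *Lin28b* was 1.5%, 2.77% and 3.97% of that at E10.5, and *Hmga2* came next. The other 6 kept between 26.8% (*Hmga1*) and 51.0% (*Igf2bp3*). At E16.5 *Hmga2* was at 3.29% and *Lin28b* at 0.415%, whereas *Igf2bp2* was at 41.2% and *Myc* at 49.8%. Among the 14771 tested genes ranked from the largest fall to E16.5, *Lin28b* stood at place 54, *Hmga2* at 197 and *Trim71* at 213, and *Myc* at 2734.

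**Figure D3:**
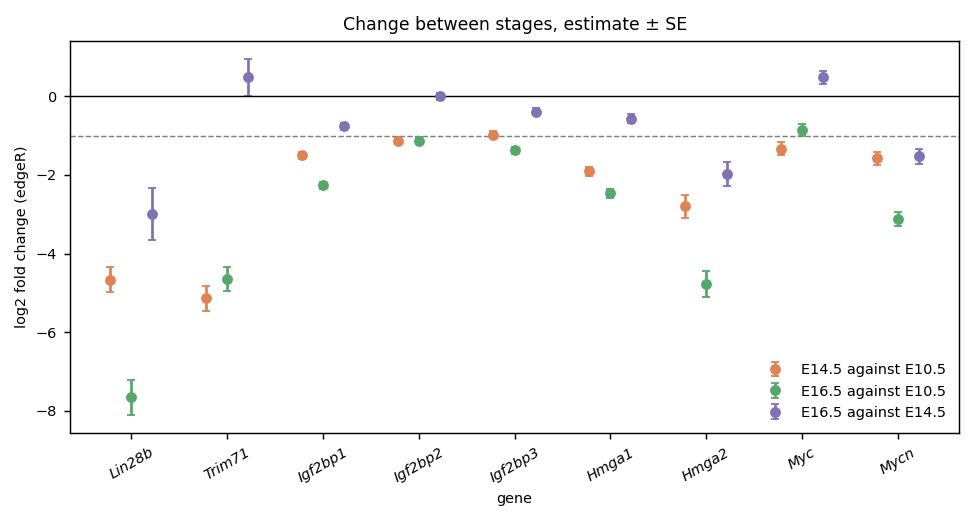
Log2 fold change from edgeR (vertical axis) with its standard error (whiskers) for the 9 tested genes in the 3 comparisons of stages (colors), where the dashed line marks the fold minimum of 1 for a fall. The E16.5 against E14.5 values of *Lin28b*, *Hmga2* and *Mycn* lie below the dashed line, and those of *Trim71* and *Myc* lie above 0 without passing the test.

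Markers of other cell types and of the cell cycle moved over the same stages, and their part in these results was not tested. Their counts stand beside 7.97% of all tested genes that fell and 13.6% that rose to E14.5. To E16.5 these shares were 15.4% and 19.4%. Summed cycling-cell markers, such as *Mki67*, ran from 748 to 820 FPKM in the crest, from 316 to 451 in E14.5 corneas and from 135 to 159 in those of E16.5, and of the 6 genes 1 fell to E14.5 and 6 fell to E16.5. Neuron markers ran from 98.6 to 165 FPKM at E10.5 and to no more than 2.66 in any cornea, and 3 of 3 fell to E14.5, with *Stmn2* at 0 in E16.5 replicate 2. Surface epithelium markers summed to at most 38.6 FPKM in the crest and to between 5084 and 7386 at E16.5, and 7 of 7 rose to E14.5, none of them being at 0 in any sample. Vascular endothelium markers ran from 62.9 to 107 FPKM in the crest, from 36.9 to 67.0 in E14.5 corneas and from 22.3 to 32.8 in those of E16.5, and 3 of 4 fell to E16.5, *Kdr* being the exception. Red blood cell markers ran from 5048 to 7890 FPKM, then from 2254 to 3793, then from 1081 to 2260, and 4 of 6 fell to E16.5, the embryonic globin gene *Hbb-bh1* to 0 in E16.5 replicate 3, while *Hbb-bs* rose. Optic cup markers were still present at E10.5, at 21.4 and 25.4 FPKM in replicates 1 and 2 and at 5.86 in replicate 3, and 2 of the 4 genes could be tested, both of which fell. In replicate 3 *Rax* was 0.61 FPKM against 5.24 and 6.63. Of the E10.5 samples, replicate 3 was the highest for *Lin28b* (14.93 FPKM), *Igf2bp3*, *Hmga2* and *Mycn*. It was the lowest for *Trim71* (3.61 FPKM), *Igf2bp1*, *Igf2bp2*, *Hmga1* and *Myc*, and *Lin28a* lay between. With replicate 3 as the only E10.5 sample, a setting chosen after the data were seen, the called fold changes of the 9 tested genes kept their direction. In that setting the E10.5 stage has 1 sample, which is assumed to vary like the samples of the other stages. Its estimates and calls therefore have no replicate check at E10.5, here and for the genes named with it further on.

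E14.5 replicate 1 also stood apart. Its *Krt12* was 101.52 FPKM against 0.62 and 2.06 in the other E14.5 samples, and its *Kera* 802.93 against 83.13 and 151.16, where every E16.5 sample measured at least 1169.86. For 6 of the 10 genes, the lowest E14.5 value was found in this sample, *Lin28b* and *Hmga2* among them. For 3, *Lin28a* and *Trim71* among them, it was found in replicate 2, and for 1 in replicate 3. The same count was not made over all genes. Without E14.5 replicate 1, 8 of the 9 tested genes fell to E14.5, and 3 of 9 fell from E14.5 to E16.5.

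The genes whose course was most like that of *Lin28a*, by Pearson correlation of log2(FPKM + 1) over the 9 samples among 10941 genes, were *Foxd1* (r = 0.9980), *Prdm12* (0.9979), *Ebf2* (0.9977), *Zic2* (0.9974) and *Nefl* (0.9973). All points of a stage share their tissue, so such values describe the step between stages. *Foxd1*, a forkhead factor of early mesenchyme and retina, measured 32.87, 42.44 and 30.12 FPKM at E10.5 and at most 0.18 in any cornea, and *Nefl*, a neurofilament gene of neurons, measured 37.37, 43.15 and 29.15 FPKM and at most 0.23. In both, as in *Lin28a*, replicate 2 was the highest of the E10.5 samples. Among the set, *Lin28b* came closest (r = 0.988) and *Mycn* was farthest (r = 0.885), with *Trim71* too low to enter. Among the 10941 genes, *Lin28b* stood at place 61 and *Mycn* at 1428. Many genes outside the set thus followed *Lin28a* as closely or more so.

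The genes around the loop were then taken list by list, 8 lists with 120 genes, 4 of them in 2 lists, of which 109 could be tested. Together 5 rose and 20 fell to E14.5, 15 rose and 38 fell to E16.5, and 4 rose and 6 fell between the corneal stages, beside 13.6% and 7.97%, 19.4% and 15.4%, and 6.26% and 5.47% of all tested genes, with median log2 fold changes of -0.36, -0.55 and -0.21. The counts between the corneal stages are near those shares. They also rest on few genes, and without E14.5 replicate 1 they were 7 and 9, whereas 3 fell without E14.5 replicate 2, without E14.5 replicate 3 or without E16.5 replicate 1.

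**Figure D4:**
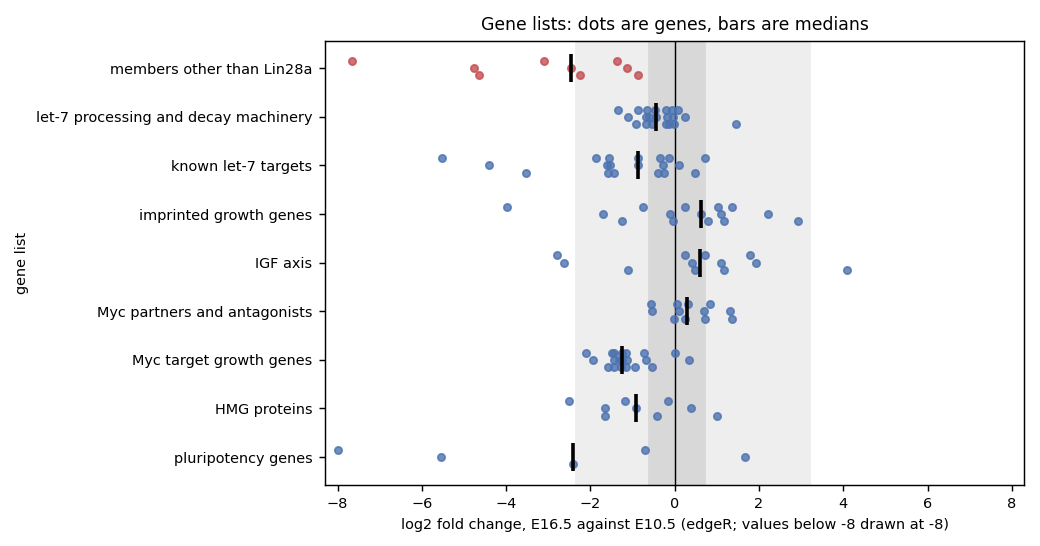
Log2 fold change from E10.5 to E16.5 (horizontal axis, edgeR) of each tested gene (dots) in the 9 genes other than *Lin28a* and in the 8 lists (vertical axis), with the list median (black bar), and with the middle 50% and 90% of all tested genes in dark and light gray. The dot at the left edge is *Sall4*, whose E16.5 samples are all at 0, and the median of the Myc target growth genes lies at -1.25 while that of the Myc partners lies at 0.28.

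Of 21 tested genes listed for the machinery that makes, tags and destroys let-7, 0 rose and 0 fell to E14.5 (13.6% and 7.97% of all tested genes). To E16.5, 1 rose and 2 fell (19.4% and 15.4%). The list medians were -0.23 and -0.45, and changes below the fold minimum are not counted. To E14.5, *Dicer1* differed by -0.45 ± 0.10 (edgeR, adjusted p = 0.003) and *Tut4* by -0.55 ± 0.11 (adjusted p = 0.0017). *Dis3l2* differed by -0.23 ± 0.11 (adjusted p = 0.091) and *Tut7* by 0.20 ± 0.08 (adjusted p = 0.063). The list also holds *Huwe1* and *Mir99ahg*, which are not factors of these steps. *Dicer1*, which cuts the precursor, was at 27.6 FPKM at E10.5 and 15.7 at E16.5 (log2 fold change -0.66 ± 0.10, edgeR, adjusted p = 0.00014), and *Tut4* at 41.0 and 20.4 (-0.86 ± 0.11, adjusted p = 4.5e-05), both below the fold minimum in this fit. For *Tut4* the value reached -1.01 with libraries scaled by their totals alone. *Tut7* differed by 0.25 ± 0.08 (adjusted p = 0.019) and overlapped between these stages, and *Dis3l2* differed by -0.55 ± 0.11 (adjusted p = 0.0011). *Huwe1*, a ligase that acts on MYC and whose gene spans the *Mirlet7f-2* and *Mir98* loci, differed by -0.21 ± 0.09 (adjusted p = 0.057). *Drosha*, which makes the first cut, fell by 1.12 ± 0.14 to E16.5 (adjusted p = 2.7e-05), a call lost with E10.5 replicate 3 as the only E10.5 sample (-0.92). *Hnrnpa1*, an RNA-binding protein of the early step, fell by 1.34 ± 0.10 (adjusted p = 8.9e-07), and *Ago4*, an Argonaute, rose by 1.45 ± 0.14 (adjusted p = 4.9e-06), a call lost with limma on log2(FPKM + 1) (0.88).

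Of 19 other known let-7 targets that could be tested, 8 fell and 0 rose to E14.5, where 7.97% of all tested genes fell and 13.6% rose. To E16.5, 9 fell and 0 rose, where 15.4% of all fell and 19.4% rose, with medians of -0.84 and -0.86. The steepest, *Igdcc3*, a receptor-like surface protein, measured 56.97, 55.20 and 53.35 FPKM in the crest, 1.26, 3.06 and 2.94 in E14.5 corneas, and 0.94, 0.93 and 1.35 in those of E16.5. The crest stood apart, with log2 fold changes of -4.52 ± 0.24 (edgeR, adjusted p = 2.1e-07) and -5.53 ± 0.26 (adjusted p = 7.2e-08), and the corneal stages overlapped. *Arid3b*, a DNA-binding partner in embryonic gene control, measured 14.72, 15.27 and 15.02 FPKM in the crest, 0.77, 2.76 and 2.05 in E14.5 corneas, and 0.51, 0.86 and 0.53 in those of E16.5. Its fold changes were -3.02 ± 0.31 (adjusted p = 2e-05) and -4.41 ± 0.36 (adjusted p = 1.5e-06). *Fign*, a microtubule-severing enzyme, fell with log2 fold changes of -1.60 ± 0.11 (adjusted p = 1.6e-06) and -1.86 ± 0.12 (adjusted p = 3.3e-07), and the E14.5 call was lost with the NOISeq criterion.

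Not every target moved that way. *Igf1r*, the receptor for IGF1 and IGF2, was higher in all corneas than in all crest samples, by 0.67 ± 0.08 to E14.5 (edgeR, adjusted p = 6.2e-05) and 0.48 ± 0.08 to E16.5 (adjusted p = 0.0003), below the fold minimum. A count over the tested genes with a 3′ UTR left out the 10 followed here but kept the known targets. Genes with 0, 1 and 2 seed matches fell to E14.5 in 7.87%, 8.65% and 8.97% of cases. Of the 19 genes with 3 or more matches, 5 (26.3%) fell. To E16.5 the shares were 15.7%, 15.3%, 18.6% and 31.6%. The class with 3 or more matches includes the listed targets *Nr6a1* and *Fign*, both of which fell to E14.5. The median UTR lengthened along these classes, from 999 to 4453 bases, so that match number and length cannot be told apart in these counts.

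*Igf2*, the growth factor whose mRNA gave the Igf2bp proteins their name, moved the other way. It measured 340.54, 333.21 and 267.59 FPKM in the crest, 656.02, 549.03 and 587.16 in E14.5 corneas, and 655.64, 618.26 and 645.15 in those of E16.5. All corneas stood above the crest samples, with log2 fold changes of 0.93 ± 0.12 (edgeR, adjusted p = 8e-05, below the fold minimum) and 1.18 ± 0.12 (adjusted p = 6.1e-06). The neighboring noncoding *H19*, imprinted with it and known to bind let-7, measured 754.52, 802.17 and 728.50 FPKM, then 1495.90, 1421.43 and 1401.82, then 1925.36, 1684.33 and 1740.44, and rose by 1.37 ± 0.10 to E16.5 (adjusted p = 7.1e-07).

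Of the 15 tested imprinted growth genes, 1 rose and 2 fell to E14.5 (13.6% and 7.97% of all tested genes), and 6 rose and 3 fell to E16.5 (19.4% and 15.4%). Most of these counts are near the shares of all genes. *Meg3*, a noncoding RNA of the *Dlk1* locus, measured 126.15, 123.22 and 108.40 FPKM in the crest, 500.17, 222.39 and 222.56 in E14.5 corneas, and 828.99, 888.88 and 935.33 in those of E16.5. It rose by 1.32 ± 0.26 (edgeR, adjusted p = 0.0014) and 2.93 ± 0.27 (adjusted p = 3.8e-06), and the E14.5 call was lost without E14.5 replicate 1 (0.85). The zinc finger gene *Zim1* rose by 2.21 ± 0.38 to E16.5 (adjusted p = 0.00038), and *Dlk1* itself, an inhibitor of differentiation, rose by 1.45 ± 0.23 between the corneal stages (adjusted p = 0.0013). In the other direction, the retrotransposon-derived *Peg10* fell with log2 fold changes of -2.92 ± 0.34 and -3.97 ± 0.36, *Mest* with -1.38 ± 0.13 and -1.70 ± 0.13, and the growth-factor adaptor *Grb10* with -1.26 ± 0.15 to E16.5, with adjusted p of at most 4.8e-05.

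In the IGF axis, 4 of 12 tested genes rose and 1 fell to E14.5 (13.6% and 7.97% of all tested genes), and 5 rose and 3 fell to E16.5 (19.4% and 15.4%). The binding protein *Igfbp2* measured 191.75, 226.62 and 228.65 FPKM at E10.5 and 3138.16, 3331.64 and 3524.89 at E16.5, and the log2 fold change was 4.10 ± 0.24 (edgeR, adjusted p = 2.4e-07). *Igfbp5* rose by 1.79 ± 0.31 (adjusted p = 0.00036) and the signaling adaptor *Irs2* by 1.93 ± 0.18 (adjusted p = 4.8e-06). *Igfbp7* rose by 1.78 ± 0.31 to E14.5 (adjusted p = 0.00072). *Igf1*, the other ligand, measured 29.26, 28.18 and 41.80 FPKM at E10.5 and 2.59, 3.63 and 5.17 at E16.5, with 9.61, 28.39 and 24.39 between them, and fell by 2.79 ± 0.37 (adjusted p = 4.8e-05). *Igfbp3* fell by 2.63 ± 0.39 (adjusted p = 0.00013). *Irs1* fell by 1.11 ± 0.13 to each corneal stage, but the values were -0.80 with E10.5 replicate 3 as the only E10.5 sample, a call that was then lost.

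Myc proteins bind DNA with partners, compete with antagonists and drive genes of growth. Of 12 tested partners and antagonists, 0 rose and 0 fell to E14.5 (13.6% and 7.97% of all tested genes), and 2 rose and 0 fell to E16.5 (19.4% and 15.4%). *Max*, the shared partner, differed by 0.18 ± 0.10 (edgeR, adjusted p = 0.14) and 0.32 ± 0.10 (adjusted p = 0.013). Besides *Mycl*, the antagonist *Mxd1* rose to E16.5, by 1.32 ± 0.14 (adjusted p = 1.2e-05), from 4.31, 4.27 and 4.05 FPKM to 10.78, 8.98 and 8.70. Of 20 growth genes driven by Myc, 4 fell and 0 rose to E14.5 and 14 fell and 0 rose to E16.5, beside the same shares of all genes, with medians of -0.84 and -1.25. *Nme1*, a nucleoside diphosphate kinase, fell with log2 fold changes of -1.31 ± 0.09 and -2.10 ± 0.09, *Odc1*, which starts polyamine synthesis, with -1.08 ± 0.15 and -1.95 ± 0.16, and *Nolc1*, a nucleolar protein, with -1.59 ± 0.13 to E16.5. *Cad*, which starts pyrimidine synthesis, fell by 1.05 ± 0.14 to E14.5. Without E14.5 replicate 1 the E14.5 calls of *Odc1* (-0.89) and *Cad* (-0.99) were lost, and that of *Cad* was also lost without E10.5 replicate 1 (-0.99) and without E14.5 replicate 2 (-0.96).

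Of 9 other HMG genes, 2 fell and 0 rose to E14.5 (7.97% and 13.6% of all tested genes), and 4 fell and 1 rose to E16.5 (15.4% and 19.4%). *Hmgb2*, a chromatin protein of proliferating cells, measured 256.28, 256.18 and 261.43 FPKM in the crest, 79.78, 136.73 and 123.79 in E14.5 corneas, and 38.99, 40.20 and 43.70 in those of E16.5, with log2 fold changes of -1.20 ± 0.17 (edgeR, adjusted p = 0.00015) and -2.51 ± 0.17 (adjusted p = 5.7e-07). The first of these calls was lost without E14.5 replicate 1 (-0.99). To E16.5 *Hmgb1* fell by 1.65 ± 0.12 and *Hmgb3* fell by 1.66 ± 0.12 (adjusted p = 7.4e-07 and 8.3e-07). *Hmgb3* also sat at the fold minimum to E14.5 (-1.0 ± 0.12, adjusted p = 5.7e-05), a call lost without E10.5 replicate 3 (-0.99) or without E14.5 replicate 1 (-0.86). *Hmgn3* rose by 1.01 ± 0.12 to E16.5 (adjusted p = 3.1e-05), but not past the minimum without E10.5 replicate 3 (0.98), without E16.5 replicate 1 (0.91) or with libraries scaled by their totals alone (0.86).

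Of 12 pluripotency genes, 11 were listed and 5 could be tested, of which 3 fell and 0 rose to E14.5 (7.97% and 13.6% of all tested genes) and 3 fell and 1 rose to E16.5 (15.4% and 19.4%). *Sall4*, a zinc finger factor that works with *Lin28a* in stem cells, measured 4.74, 5.33 and 4.69 FPKM at E10.5, 0, 0.21 and 0.02 at E14.5, and 0 in all E16.5 samples. At E16.5 it was at least 70.5-fold lower than at E10.5, with 3 counts per library as the floor, and at E14.5 it rested on 0, 8 and 1 counts. *Sox2* measured 7.46, 11.11 and 3.73 FPKM at E10.5 and at most 0.18 in any cornea, and it is also a gene of the optic cup and neural tissue, whose markers were lower in the same E10.5 replicate 3. The methyltransferase *Dnmt3b* fell with log2 fold changes of -1.51 ± 0.16 and -2.41 ± 0.17 (edgeR, adjusted p = 2.5e-05 and 6.7e-07). *Klf4*, also a factor of surface epithelia, rose by 1.67 ± 0.50 to E16.5 (adjusted p = 0.012), from 10.91, 8.62 and 1.66 to 24.49, 18.07 and 18.28 FPKM.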

How the data were processed

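RNA-Seq was made from 9 samples, 3 per stage, grouped by the stage in their labels. Per the labels and the study's methods, the authors filtered reads, mapped them with Bowtie2 and HISAT to mouse genes and GRCm38, and quantified them with RSEM, whose versions are not given in the sources used here. The authors deposited an expected count per gene, an estimate that is not normalized, and FPKM, which RSEM scales to transcript length and to the sample's total. A gene absent from a sample was taken as 0 there, and 19312 of 19369 identifiers matched a symbol in RefSeq.

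Expected counts were rounded to whole numbers, filtered with filterByExpr by stage and scaled with TMM. Factors ran from 0.918 to 0.940 at E16.5 and from 1.014 to 1.058 elsewhere. Stage was modeled over the 9 samples together by the quasi-likelihood method of edgeR 4.0.16 in R 4.3.3, and p-values were adjusted by Benjamini-Hochberg over all 14771 genes. It was tested on simulated data first. Standard errors follow from the fold change and the F statistic. Alternatives were limma 3.58.1 on log2(FPKM + 1) and log2(FPKM + 0.1), DESeq2 1.42.0, the study's NOISeq criterion recomputed from FPKM (probability of at least 0.8, log2 ratio of at least 1 in size), total-count scaling, no filter, no fold minimum, the 6 samples compared alone, a replicate block and each sample left out. Intervals and floors (3 counts) cover counting error only.

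The 10 genes, the lists, the tests and the alternatives were chosen with earlier results of these data known. The genes named are the 10, a fixed set of loop and family genes, and per list and comparison up to 3 in each direction with the largest called change, no overlap between stages and an average FPKM no lower than 1 in the higher stage, and the 5 most like *Lin28a*. Samples of a stage are called biological replicates by the study. No pair of replicates was identical (chi-square per degree of freedom 3.03 to 27.9). Seed matches use the 3′ UTRs of GENCODE M21 transcripts.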

Additional observations from a re-analysis of the deposited data

How the results depend on the processing

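Among the 9 tested genes, no called fold change turned direction under any alternative run. Of the recomputed values, 407 kept their side of the threshold, 12 gained a call and 2 lost it. Without the fold minimum, 6 in place of 3 of them fell between the corneal stages. For the list genes, dropping that minimum gave 16 that rose and 61 that fell to E14.5, 26 and 62 to E16.5, and 20 and 39 between the corneal stages. With E10.5 replicate 3 as the only E10.5 sample, an alternative added after the data were seen that leaves this stage 1 sample, 8 list genes rose to E14.5. Between the corneal stages, 3 list genes fell when the 6 samples were fitted alone and 3 with limma on log2(FPKM + 1), and the cause was not tested. Leaving out each sample in turn gave 4 to 7 that rose and 3 to 9 that fell in that comparison. Replicate numbers recur in each stage. The mean correlation of deviations from the stage mean was -0.0341 over 9 same-numbered pairs (-0.256 to 0.216), against 0.0178 over 18 others. Such deviations cancel within a stage, which ties these means to each other. This comparison therefore cannot decide whether the numbers pair the samples. With the replicate block, 8, 8 and 3 of the 9 genes fell in the 3 comparisons, and 20, 38 and 4 list genes fell. Scaling by library totals alone moved the median of all genes to -0.15 from E10.5 to E16.5 and to -0.19 from E14.5 to E16.5, and the share of calls that were higher went from 55.6% to 48.2% and from 53.3% to 40.0%, the latter also to 43.0% with limma on log2(FPKM + 0.1). Depth limits what can be said of *Lin28a*, *Lin28b* and *Trim71* in the cornea, which rest on a few counts per sample.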
